A study of Homo sapiens with 4 samples.

Results

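The enzymes and complex subunits that write, read and remove methyl groups on histones were examined here as 38 named genes, out of 20033 protein-coding genes of GENCODE release 44. They comprise 7 genes of Polycomb repressive complex 2 (PRC2), 10 genes of Polycomb repressive complex 1 (PRC1), 7 genes of the H3K4 methyltransferase family, 2 methyltransferases of H3K36 and H3K79, 5 methyltransferases of H3K9 and 7 demethylases. The genes were listed by name, and every merged open-chromatin region within 10 kb of one of these gene bodies was taken as theirs, which gave 252 of 164301 regions. A region at chr17:79796801-79797597, lies within 10 kb of both CBX2 and CBX8 and was counted once.

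The cells were pancreatic progenitors (PPs) differentiated from MEL1, a single established human embryonic stem cell line, which the methods of the study list as MEL1 INS GFP/W, with a GFP reporter at the insulin gene. Both groups were cultured in the same EF6 medium, which is DMEM with B27, EGF, bFGF and 616452, a TGFβ receptor inhibitor. One group received DMSO for 7 days and the other received 1 μM I-BET151 for 7 days (EF6I medium), with 2 libraries per condition. I-BET151 inhibits the bromodomains of BET proteins, which bind acetylated histones. Accessible chromatin was measured by ATAC-seq from 50000 cells per library, in which the Tn5 transposase cuts and tags open DNA. The labels do not say whether the libraries of a group came from separate cultures, so the spread between them may be technical.

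PRC2 methylates H3K27, and PRC1 binds the resulting H3K27me3 through its CBX subunits and ubiquitinates histone H2A. Together they keep developmental regulators silent in embryonic stem cells, and such marks are removed at lineage genes as progenitors form. H3K4 methylation marks active promoters and enhancers, H3K36 and H3K79 methylation mark transcribed gene bodies, H3K9 methylation marks heterochromatin, and the KDM enzymes remove these marks.

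The sequences of the regions to which the results return are given here for hg38, plus strand, as the 121 bases centred on the summit of the strongest peak. The first 3 windows belong to the regions that passed a test of their rank among the regions called in every list. They lie in intron 6 of SETD1B, in intron 2 of JARID2 and 272 bp upstream of the start of CBX8, where capitals mark the ETS-family core CCGGAAGT.
SETD1B intron, chr12:121812197-121812317: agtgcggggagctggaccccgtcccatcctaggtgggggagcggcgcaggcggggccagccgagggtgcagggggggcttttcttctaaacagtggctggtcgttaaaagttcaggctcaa
JARID2 intron, chr6:15390418-15390538: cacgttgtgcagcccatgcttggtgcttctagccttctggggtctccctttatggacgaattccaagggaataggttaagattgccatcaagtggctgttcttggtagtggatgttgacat
CBX8 promoter, chr17:79797289-79797409: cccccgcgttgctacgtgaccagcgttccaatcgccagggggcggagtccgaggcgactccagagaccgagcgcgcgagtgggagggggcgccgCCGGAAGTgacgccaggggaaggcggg
The next windows are the strongest region called in both libraries of I-BET151 and neither of DMSO, in intron 3 of KDM6A, and the strongest region of the opposite kind, in intron 2 of EHMT1. Here strength is the lower of the folds in the libraries of that condition. The EHMT1 window is a tandem repeat: in the 201 bp around the summit, 93.0% of the bases equal the base 29 positions later, whereas the best such share was between 31.1% and 40.5% in the other regions named for the rank test or among the strongest of 1 condition.
KDM6A intron, chrX:44970874-44970994: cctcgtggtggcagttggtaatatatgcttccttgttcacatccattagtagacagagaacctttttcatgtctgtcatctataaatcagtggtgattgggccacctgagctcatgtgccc
EHMT1 intron, chr9:137716288-137716408: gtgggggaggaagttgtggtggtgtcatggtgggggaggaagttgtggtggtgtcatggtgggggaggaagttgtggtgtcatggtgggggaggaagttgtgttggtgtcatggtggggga
The last pair is the promoters of EZH2 and EED, which had the lowest rank differences among the regions of these genes.
EZH2 promoter, chr7:148884384-148884504: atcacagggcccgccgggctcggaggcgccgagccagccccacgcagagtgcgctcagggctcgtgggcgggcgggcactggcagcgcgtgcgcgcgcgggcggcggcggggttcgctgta
EED promoter, chr11:86244421-86244541: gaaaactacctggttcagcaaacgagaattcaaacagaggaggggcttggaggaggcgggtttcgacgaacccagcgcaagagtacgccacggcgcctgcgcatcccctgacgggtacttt

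The libraries differed in depth and in list length. The deposited peak lists held between 38295 and 111324 peaks, and the DMSO libraries (36.6 and 38.7 M reads, estimated from the background of each list) were deeper than those of I-BET151 (12.5 and 15.999 M reads). Depth and treatment cannot be told apart, and 2 against 2 libraries allow no exact permutation p below 0.33. For the cell type label, the promoters of 6 of 8 pancreatic progenitor markers were called in every list, whereas 0 of 4 pluripotency markers and 0 of 4 endocrine markers were. PDX1 was called in the I-BET151 lists only, and ONECUT1 was missing from the DMSO replicate 2 list. The endocrine marker CHGA was likewise missing only from the DMSO replicate 2 list. The endocrine marker NEUROD1 was called only in the I-BET151 replicate 1 list, and the pluripotency marker DPPA4 only in the I-BET151 replicate 2 list. Of 4 mesenchymal markers, 3 were called in every list, as was APOA1 of the 3 liver markers.

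Most promoters of these genes were open in both conditions. A region within 1 kb of the canonical start site was called in every list for 25 of the 38 genes (65.8%), against 53.5% of all protein-coding genes. The number of called promoters was 25 and 27 in the DMSO lists and 30 and 37 in the I-BET151 lists. Over all 20033 protein-coding genes it was 12241 and 11236 with DMSO and 13318 and 14095 with I-BET151. SUZ12 was the only one of the 38 genes with no promoter call in any list (2.63%, against 26.2% of all protein-coding genes). The promoters of 5 genes, CBX2, KMT2D, SETD1B, EHMT1 and KDM5B, were absent from the DMSO lists and present in both I-BET151 lists (13.2%, against 7.07% of all protein-coding genes).

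Fold enrichment, as the authors' peak caller gave it, is the pileup at the summit over the local background. The same constant is added to both. Both I-BET151 values exceeded both DMSO values at 64 of the 65 regions of these genes called in every list, and at 90.1% of all 25627 such regions genome-wide. Genome-wide the share was 97.2% at promoters and 86.0% outside them, and 38 of the 65 regions lay at promoters. The median ratio of I-BET151 to DMSO fold was 1.81 (range 1.23 to 3.04) for the 65 regions and 1.79 for all regions. A higher fold was thus shared by most regions called in every list. Regions were compared by their rank in each library among the regions called in every list. The rank difference is I-BET151 minus DMSO in normal scores, that is in SD of a normal distribution of ranks, and was tested with limma over all 25627 regions.

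By rank, 3 of the 65 regions rose in limma's test (4.62%, against 3.41% of all regions tested), and 0 fell (against 1.96%). Without adjustment, 11 of the 65 had p under 0.05 with a higher rank (16.9%, against 13% of all regions tested) and 4 with a lower rank (6.15%, against 11.9%). The median rank difference was 0.06 for the 65 regions and -0.03 for all regions. At the 24 promoters of the genes themselves it was -0.20, with 8 above and 16 below 0, and it was -0.07 over all 9528 promoter regions. At the 27 regions away from any promoter it was 0.31, with 18 above and 9 below 0, against -0.00398 over all 16099 regions outside promoters. The remaining 14 regions, at promoters of neighbouring genes, had a median of 0.18. These groups of regions are given as descriptions, with no test between them.

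**Figure D1:**
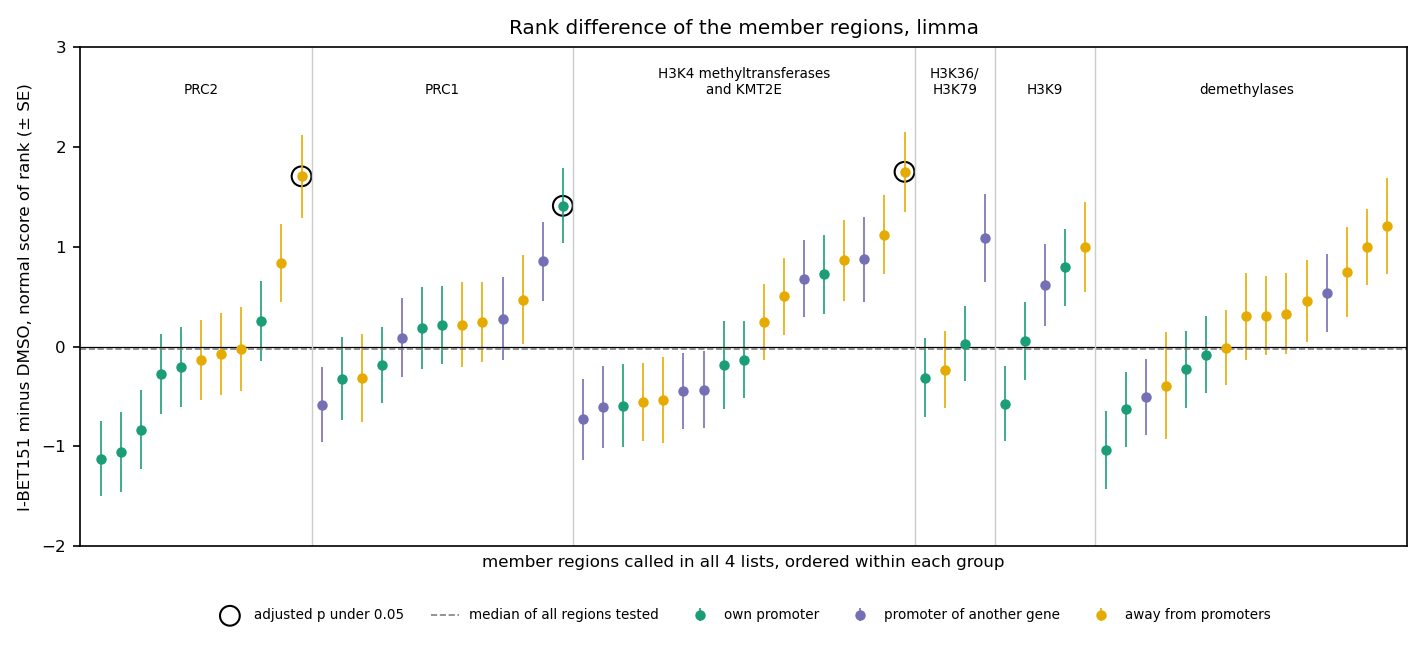
Rank difference (I-BET151 minus DMSO, normal score, y axis) with its standard error from limma for the 65 regions called in all 4 lists, ordered within each group of genes along the x axis. Colours mark where a region lies, and black circles mark the 3 regions with an adjusted p under 0.05, in JARID2, at the CBX8 promoter and in SETD1B.

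The largest rise was in SETD1B (ENSG00000139718), one of the enzymes that deposit H3K4me3 at promoters. The region chr12:121811589-121812849 has its summit 8248 bp after the start of the gene, in intron 6. Its fold enrichment was 3.04 and 3.00 in the DMSO libraries and 7.10 and 11.3 in the I-BET151 libraries. Both I-BET151 folds thus lay above both DMSO folds, as at 90.1% of all regions called in every list. The pileups of 31 and 29 reads with DMSO and 25 and 71 with I-BET151 did overlap. Its percentile within the list was 11.9 and 11.3 with DMSO and 70.4 and 89.6 with I-BET151. The rank difference was 1.75 ± 0.40 (SE, limma, Benjamini-Hochberg adjusted p = 0.0244).

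The region that rose in JARID2 (ENSG00000008083), a cofactor that helps bring PRC2 to its targets, was chr6:15390172-15390887, in intron 2 and 144409 bp after the start. Its fold enrichment was 2.76 and 2.90 with DMSO and 8.40 and 7.43 with I-BET151. Here too both I-BET151 folds lay above, as at most regions called in every list. Behind these values stood pileups of 14 and 16 reads in the DMSO libraries against 21 and 23 in the others. The rank difference was 1.70 ± 0.42 (SE, limma, adjusted p = 0.0307).

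The third region was the promoter of CBX8 (ENSG00000141570), a chromodomain subunit of PRC1, which also lies downstream of its neighbour CBX2 (ENSG00000173894), 19201 bp after the CBX2 start. Its fold enrichment was 3.87 and 3.63 with DMSO and 10.3 and 11.97 with I-BET151, and the pileup was 38 and 35 reads against 50 and 97 reads. The rank difference was 1.41 ± 0.38 (SE, limma, adjusted p = 0.0425). This is the only one of the 24 promoters in which the core CCGGAAGT or its reverse complement stood within 100 bp of the summit (4.17%), against 6.42% of all promoter regions called in every list.

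None of the 3 calls held when either DMSO library was left out, while the rank differences kept their direction. Without DMSO replicate 1 they were 1.55 for SETD1B, 1.34 for JARID2 and 1.29 for CBX8 (limma adjusted p = 0.208, 0.287 and 0.294), and without DMSO replicate 2 they were 1.83, 1.92 and 1.39 (limma adjusted p = 0.0849, 0.0668 and 0.237). These fits take the spread from the I-BET151 libraries alone, so the single DMSO library is assumed to vary like them, and over all regions the number that rose fell from 875 to 117 and 308. With ranks by −log10 p in place of fold the differences were 1.02, 1.77 and 0.99 (limma adjusted p = 0.197, 0.143 and 0.163), and 8 regions rose in all. Without I-BET151 replicate 1 the adjusted p (limma) was 0.0635 for JARID2 and 0.0526 for CBX8, and with ranks within the whole list it was 0.0567 for CBX8. With −log10 p of at least 5, the JARID2 region was not among the 62 regions of these genes that could be tested. SETD1B and CBX8 passed there (limma adjusted p = 0.0190 and 0.0374). Pileup per M reads, which is not corrected for the shift between conditions, was higher with I-BET151 at all 65 regions. The median log2 difference was 1.99, against 1.901 over all regions. After centring each library on its median, 0 of the 65 regions passed in limma (2 higher and 4 lower at an unadjusted p under 0.05), and the value of the SETD1B region was -0.02.

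In PRC2, the promoters of EZH2, EED and RBBP7 had the lowest rank differences, and none of these passed the test. EZH2 (ENSG00000106462), the main H3K27 methyltransferase, had a promoter fold of 8.60 and 8.70 with DMSO and 9.64 and 11.7 with I-BET151 (rank difference -1.12 ± 0.38, limma adjusted p = 0.0861). EED (ENSG00000074266), the subunit that recognises H3K27me3, had 6.89 and 6.90 with DMSO and 9.36 and 8.36 with I-BET151 (rank difference -1.06 ± 0.40, limma adjusted p = 0.121). RBBP7, a histone-binding subunit, had 5.98 and 5.29 with DMSO and 8.02 and 7.72 with I-BET151 (rank difference -0.83 ± 0.39, limma adjusted p = 0.201). In all 3 the fold was higher with I-BET151, but the ratios of 1.23, 1.28 and 1.40 lay below the median of all regions. The EZH2 promoter stood at percentiles 97.8 and 96.1 of the DMSO lists and at 86.9 and 91.0 of the I-BET151 lists, and its ratio was the smallest of the 65 regions.

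The promoters of EZH1, RBBP4 and JARID2 had rank differences near 0. The promoter of EZH1, the paralogous methyltransferase, had a fold of 4.59 and 5.31 with DMSO and 9.18 and 11.2 with I-BET151. That of RBBP4, the paralog of RBBP7, had 6.45 and 6.45 against 11.7 and 10.7, and that of JARID2 had 4.39 and 4.65 against 7.59 and 7.53. These differences lay between -0.28 and 0.26, each smaller than its standard error. EZH2 also had a region in intron 1, chr7:148863594-148864482, which both I-BET151 lists and neither DMSO list held, with a fold of 6.72 and 7.19.

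SUZ12 (ENSG00000178691), the scaffold of PRC2, stood apart because no region was called at its start site. The only region within 10 kb of the gene was chr17:32007249-32007615, downstream of SUZ12 and at the promoter of LRRC37B. It was called with I-BET151 alone, in both libraries, with a fold of 5.72 and 9.14 and a pileup of 10 and 22 reads. The 1001 bp around the SUZ12 start have another copy in hg38 at chr17:30731135-30732110, with 93.1% identity. Whether reads at the start site were lost to this copy was not tested. The start of KMT2C also has a copy, on chr22:16601526-16602338, with 79.2% identity.

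In PRC1, the catalytic subunit RNF2 had a promoter fold of 5.54 and 6.76 with DMSO and 8.30 and 12.2 with I-BET151. RING1, its paralog, had a promoter call only in the I-BET151 replicate 2 list (3.70), although both regions at its upstream neighbours' promoters were called in every list. BMI1, which pairs with these ligases, had a weak promoter region called in the DMSO replicate 2 list (2.76) and in the I-BET151 replicate 2 list (3.46). These 3 genes thus showed 1 promoter called throughout and a pair called in replicate 2 lists only.

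The polyhomeotic subunits, which link PRC1 complexes into larger assemblies, were open at their promoters in every library. PHC2 had a fold of 7.97 and 6.82 with DMSO and 12.5 and 12.9 with I-BET151. PHC3 had 5.47 and 5.12 against 11.7 and 9.92, and PHC1 had 4.27 and 4.27 against 8.41 and 8.63. Their rank differences were -0.18, 0.19 and 0.22, all within 1 standard error of 0.

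Among the chromodomain subunits, CBX8 was the only one with a single promoter region called in every list. CBX7 was called at its start in both conditions but at different places. In the DMSO lists it was a region in intron 1, chr22:39151413-39151695, with its summit 1052 bp after the start and a fold of 2.89 and 2.99. In the I-BET151 lists it was chr22:39152447-39153277, with its summit 157 bp before the start and a fold of 5.71 and 7.67. CBX2 had promoter calls only in the I-BET151 lists, at neighbouring regions 177 bp before the start in replicate 1 (4.22) and 59 bp after the start in replicate 2 (4.21). CBX6 had a promoter call only in I-BET151 replicate 2 (5.40) and no region called in every list.

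Among the H3K4 methyltransferases, KMT2A and KMT2B, which act with menin, had promoters called in every list. The KMT2A promoter had a fold of 3.86 and 3.41 with DMSO and 6.67 and 5.01 with I-BET151, and the KMT2B promoter had 3.94 and 3.58 against 9.19 and 8.31. SETD1A had 3.95 and 4.00 against 6.25 and 7.23. KMT2E, a relative for which no methyltransferase activity is established, had 5.74 and 6.36 against 9.98 and 8.60. None of these 4 promoters passed the rank test, with differences between -0.59 and 0.72.

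KMT2D and KMT2C place H3K4me1 at enhancers, and neither had a promoter call in a DMSO list. The KMT2D promoter had a fold of 6.42 and 6.47 in the I-BET151 lists, and the KMT2C promoter was called only in I-BET151 replicate 2 (4.77). SETD1B showed the same kind of call, with a region 988 bp before its start at 5.83 and 4.60 in the I-BET151 lists. Inside KMT2C, a region of intron 2, chr7:152341234-152341817, was among the strongest called only with I-BET151, at 7.98 and 8.01.

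The promoters of both methyltransferases of transcribed gene bodies were called in every list and did not pass the rank test. SETD2, the H3K36me3 writer, had a promoter fold of 7.07 and 7.00 with DMSO and 12.2 and 13.8 with I-BET151 (rank difference 0.03 ± 0.38). DOT1L, the H3K79 methyltransferase, had 5.10 and 4.67 against 8.61 and 7.84 (rank difference -0.31 ± 0.40). None of the 16 regions of these genes was called in one condition alone in both of its libraries.

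Of the H3K9 methyltransferases, SETDB1 and both SUV39H enzymes, which write H3K9me3, had promoters called in every list. SUV39H1 had a fold of 4.07 and 4.22 with DMSO and 9.94 and 10.4 with I-BET151, with a rank difference of 0.79 ± 0.39 that did not pass (limma adjusted p = 0.218). SUV39H2 had 6.75 and 6.37 against 9.14 and 11.0, and SETDB1 had 6.73 and 6.17 against 10.2 and 14.4. EHMT1 and EHMT2, which form the H3K9me2 methyltransferase, had no promoter call in a DMSO list. The EHMT1 promoter had a fold of 5.56 and 6.57 in the I-BET151 lists, and that of EHMT2 was called only in I-BET151 replicate 2 (4.21).

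Among the demethylases, KDM4A had the highest promoter fold of the 38 genes in each of the 4 libraries. This enzyme, which acts on H3K9me3 and H3K36me3, had a fold of 9.26 and 9.18 with DMSO and 14.7 and 14.7 with I-BET151. KDM1A, also called LSD1, had 6.34 and 5.43 against 9.03 and 12.6. The rank differences of both lay within 1 standard error of 0 (-0.23 and -0.08).

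The H3K27 demethylases KDM6A and KDM6B and the H3K4 demethylases KDM5A and KDM5B each split. KDM6A had a promoter fold of 6.90 and 6.01 with DMSO and 9.04 and 10.3 with I-BET151, whereas the KDM6B promoter was called only in I-BET151 replicate 2 (3.60). KDM5A had 6.44 and 6.43 with DMSO and 6.62 and 10.0 with I-BET151 (rank difference -1.03 ± 0.39, limma adjusted p = 0.119), and the KDM5B promoter was called only with I-BET151, at 3.11 and 3.19. KDM2B, which brings a form of PRC1 to CpG islands, had weak promoter calls at different places, 299 bp before the start in DMSO replicate 2 (2.43) and 683 bp after it in I-BET151 replicate 2 (2.85).

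Counted over all 252 regions, 30 appeared in both lists of I-BET151 and in neither of DMSO (11.9%). They are referred to as called only with I-BET151. Among all regions within 10 kb of a protein-coding gene this share was 16.3%, and among all merged regions it was 17%. The opposite class, found in both lists of DMSO and in neither of I-BET151, held 8 regions (3.17%), against 2.29% near protein-coding genes and 2.37% of all regions. Regions called in every list made up 25.8% of the 252, against 18.8% near protein-coding genes. The 4 lists held 137 and 89 of the 252 regions with DMSO (54.4% and 35.3%) and 133 and 181 with I-BET151 (52.8% and 71.8%). Near protein-coding genes these shares were 50.4% and 26.0% with DMSO and 50.7% and 69.7% with I-BET151.

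**Figure D2:**
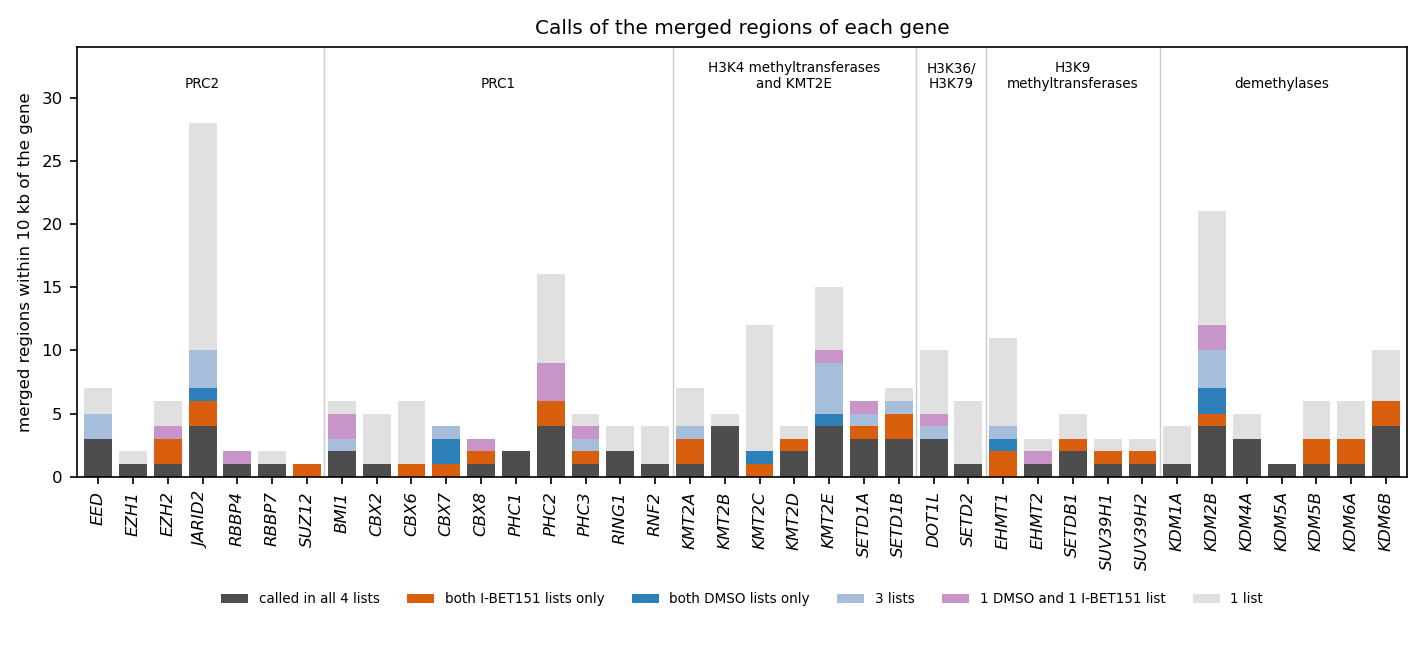
Number of merged regions within 10 kb of each gene (y axis, stacked bars) by the lists that called them. JARID2 with 28 and KDM2B with 21 regions hold the most, and KDM5A and SUZ12 hold 1 region each.

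The regions called only with I-BET151 were spread over the groups, with 5 in PRC2, 6 in PRC1, 7 in the H3K4 group, 0 at SETD2 and DOT1L, 5 in the H3K9 group and 7 in the demethylases. The strongest was chrX:44970742-44971253 in intron 3 of KDM6A, 97746 bp after the start, with a fold of 10.4 and 9.96 and a pileup of 23 and 30 reads. Beside the KMT2C and EZH2 introns given above, the next were chr9:137695146-137695670 in intron 1 of EHMT1 (7.80 and 7.15) and chr1:202719592-202719975 downstream of KDM5B (7.92 and 6.60). By this rule, which takes the lower of the 2 folds, the first 5 lie away from promoters. Of the 30 regions, 8 lay at the promoter of some gene (26.7%), which compares with 25.0% of all 252 regions of these genes and with 9.82% of the regions called only with I-BET151 near any protein-coding gene. Their median GC content was 57.2%, against 45.3% of all regions called only with I-BET151. In the regions called in every list it was also higher at these genes, at 64.2% against 55.2% over all regions of that class.

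Of the 8 regions called only with DMSO, the one in intron 2 of EHMT1, chr9:137716077-137716566, exceeded the others by far, with a fold of 9.19 and 10.7 and a pileup of 40 and 49 reads. It stood at percentiles 98.5 and 98.7 of the DMSO lists and is the tandem repeat shown above. The next were chr22:39124352-39124724 in CBX7 (4.98 and 3.86), chr12:121548960-121549517 in intron 5 of KDM2B (4.95 and 3.74), chr6:15323169-15323568 in intron 1 of JARID2 (4.74 and 3.51) and chr7:104962367-104962829 in KMT2E (3.80 and 3.40). The remaining 3 lay in KDM2B, CBX7 and KMT2C, with folds between 2.89 and 3.97.

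The counts of regions called in 1 condition depended on which peaks and lists entered. When each list was reduced to the same number of strongest peaks, the I-BET151 lists alone held 3 regions of these genes (2.48%) and the DMSO lists alone 7 (5.79%), against 8.67% and 5.81% near protein-coding genes. Without DMSO replicate 2, which has the shortest list, 45 regions were called only with DMSO (18.1%, against 20.1% near protein-coding genes). Leaving out I-BET151 replicate 1 gave 85 called only with I-BET151 (36.3%, against 41.7%). Leaving out I-BET151 replicate 2 gave 53 (26.1%, against 33.4%).

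The locus score summarises a gene in 1 library as the mean percentile of its regions within that list, with 0 for a region not called. Averaged over the 38 genes it was 30.7 and 22.1 in the DMSO libraries and 36.6 and 40.8 in the I-BET151 libraries, that is 26.4 ± 6.06 and 38.7 ± 2.98 (SD, n = 2). The difference of 12.3 compares with 11.6 over all 18503 genes with a region. Between the replicate 1 libraries it was 5.90, and between the replicate 2 libraries 18.7, against 2.60 and 20.6 over all genes. With equal numbers of peaks per list the difference turned to -0.74, and that over all genes had a median of -0.59.

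**Figure D3:**
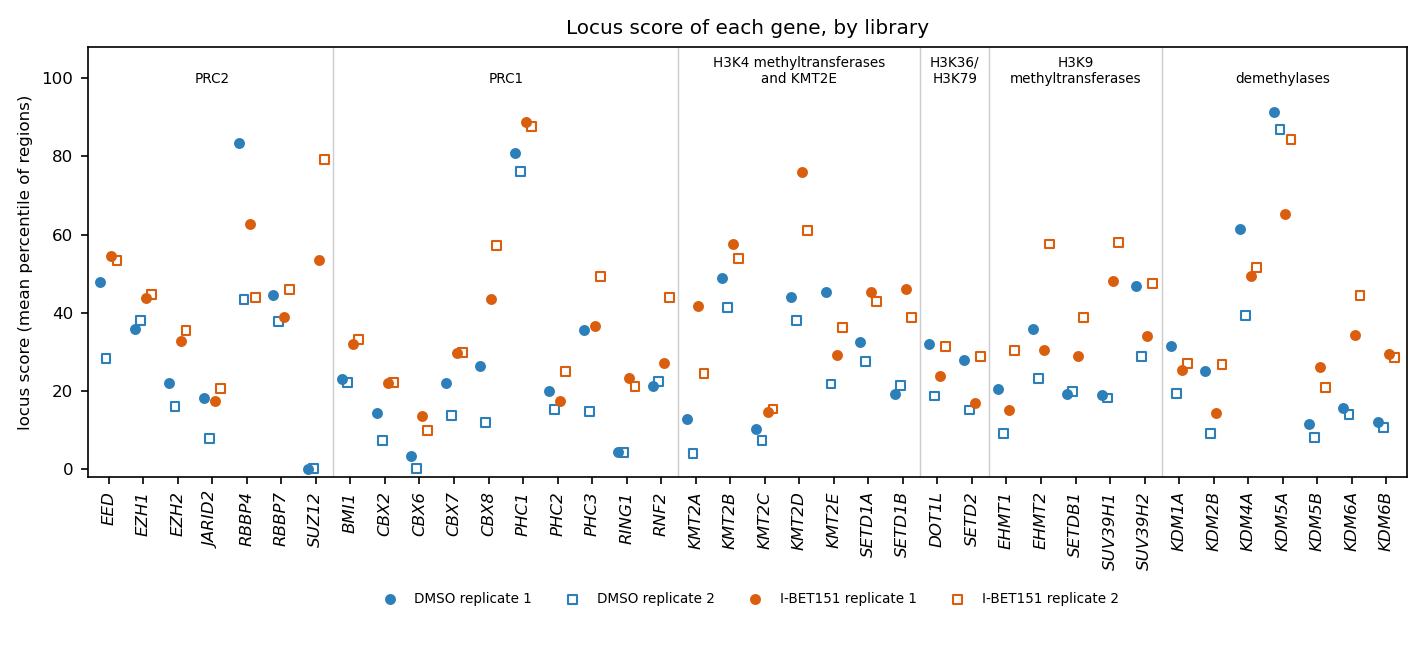
Locus score (mean percentile of the regions of a gene within a list, y axis) of each of the 38 genes (x axis, by group) in each library. Blue marks DMSO and orange marks I-BET151, with circles for replicate 1 and open squares for replicate 2. Both orange points lie above both blue points at 24 genes, and KDM5A is the only gene with both below.

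In 24 of the 38 genes both I-BET151 libraries scored above both DMSO libraries (63.2%), against 50.9% of all genes with a region. KDM5A was the only gene with both below (2.63%, against 3.68%), and the other 13 overlapped. The 24 comprise 4 of the 7 PRC2 genes, 9 of the 10 PRC1 genes, 6 of the 7 genes of the H3K4 group, 0 of SETD2 and DOT1L, 2 of the 5 H3K9 methyltransferases and 3 of the 7 demethylases. PHC2 was the PRC1 gene whose libraries overlapped, with scores of 19.9 and 15.2 with DMSO and 17.4 and 25.0 with I-BET151.

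The score differed most at SUZ12, with 0 in both DMSO libraries and 53.5 and 79.2 in the I-BET151 libraries, and this score rests on its 1 region. SUV39H1 followed with 18.9 and 18.2 against 48.2 and 57.8, and CBX8 with 26.3 and 11.98 against 43.5 and 57.1. At KDM6A, whose intron held the strongest region called only with I-BET151, the scores were 15.6 and 13.9 against 34.3 and 44.3. At RING1 they were 4.28 and 4.16 against 23.2 and 21.2.

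The scores of 3 genes were lower with I-BET151. KDM5A, whose only region is its promoter, scored 91.3 and 86.8 with DMSO and 65.3 and 84.4 with I-BET151. RBBP4 scored 83.4 and 43.5 against 62.7 and 43.8, and KMT2E scored 45.4 and 21.7 against 29.2 and 36.2. The libraries of RBBP4 and KMT2E overlapped, and without DMSO replicate 1 their differences of -10.2 and -0.88 became 9.79 and 11.7.

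The sequences around the summits were searched for a CTCF core consensus, within 100 bp on both strands. It was found in 0 of the 30 regions called only with I-BET151 and in 0 of the 65 regions called in every list, against 4.13% and 2.30% of all regions of these classes. The match occurred in 4 other regions of these genes, all intronic and none called in both libraries of a condition. Their windows are shown, with the match in capitals, because CTCF is a well-known insulator protein that binds open chromatin at such sequences.
KMT2C intron 2, called in I-BET151 replicate 1 (fold 5.56), chr7:152336903-152337023: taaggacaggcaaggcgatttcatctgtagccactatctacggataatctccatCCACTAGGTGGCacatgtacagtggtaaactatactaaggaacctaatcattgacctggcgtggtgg
CBX6 intron 4, called in DMSO replicate 1 (fold 2.77), chr22:38868975-38869095: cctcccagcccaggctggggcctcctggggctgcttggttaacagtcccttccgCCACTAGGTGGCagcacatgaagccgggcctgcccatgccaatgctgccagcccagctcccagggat
PHC2 intron 6, called in I-BET151 replicate 2 (fold 3.99), chr1:33367916-33368036: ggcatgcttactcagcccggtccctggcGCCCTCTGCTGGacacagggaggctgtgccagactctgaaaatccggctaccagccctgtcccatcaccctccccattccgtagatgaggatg
KDM2B intron 11, called in replicate 1 of both conditions (folds 3.69 and 6.24), chr12:121500012-121500132: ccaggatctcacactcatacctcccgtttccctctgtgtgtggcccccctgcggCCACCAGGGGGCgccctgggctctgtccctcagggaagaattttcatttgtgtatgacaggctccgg
The CCAAT box, searched as CCAAT and its reverse complement, stood within 100 bp of the summit in 13 of the 24 promoters called in every list (54.2%), against 29.7% of all promoter regions called in every list. The promoters of EZH2 and CBX8 each held 2 such matches, and that of EED held 0.

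Further genes of the same pathways, 50 in all, were read in the same way. They include accessory subunits of PRC2 and PRC1, the shared WDR5 module of the H3K4 enzymes, the NSD enzymes and other KDM demethylases. Of their 435 regions, 71 were called only with I-BET151 (16.3%), 7 only with DMSO (1.61%) and 106 in every list (24.4%). Among all regions near protein-coding genes these shares were 16.3%, 2.29% and 18.8%. Promoters were called in every list for 40 of the 50 genes and in no list for 1, against 53.5% and 26.2% of all protein-coding genes.

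By rank, 1 of these 106 regions rose and 2 fell, against 3.41% and 1.96% of all regions tested. The region that rose was chr11:68147080-68147501 at KMT5B, an H4K20 methyltransferase, with a fold of 3.44 and 3.39 with DMSO and 7.89 and 12.1 with I-BET151 (rank difference 1.44 ± 0.40, limma adjusted p = 0.0468). At KDM3B, an H3K9 demethylase, chr5:138386229-138386663 had 5.43 and 4.09 with DMSO and 3.64 and 4.77 with I-BET151 (rank difference -2.04 ± 0.39, limma adjusted p = 0.0132). At DPY30, a subunit shared by the H3K4 methyltransferases, chr2:31876916-31877422 had 9.005 and 6.25 against 5.83 and 10.4 (rank difference -1.57 ± 0.43, limma adjusted p = 0.0473). The fold values of the regions at KDM3B and DPY30 overlapped between the conditions although their ranks fell. The summits lay 65988 bp after the start of KMT5B, 33739 bp after that of KDM3B and 162554 bp after that of DPY30. For 27 of the 50 genes both I-BET151 libraries scored above both DMSO libraries, and for 0 both scored below. Over all genes with a region these shares were 50.9% and 3.68%.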

How the data were processed

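ATAC-seq peak lists of 4 libraries were analysed, 2 per condition, and groups were taken from the sample labels. Alignment by the authors used Bowtie2 (v2.2.5) and hg38, and after removal of duplicate and mitochondrial reads each library was given to MACS2 (v2.1.2) on its own. A deposited list holds per peak a fold enrichment, the −log10 p-value and the −log10 q-value. The fold is the ratio of summit pileup to local background, with a constant of 1 added to both. The lists also hold a display score set by the authors' software, which was not used. The methods state a threshold of 1e-05, whereas the lists reach a q-value of 0.05. Read extension, read off the shortest peak, was 200 bp for replicate 1 of both conditions and 233 and 256 bp for replicate 2.

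Peaks overlapping by 1 bp or more were merged, and regions within 10 kb of a GENCODE release 44 gene body were assigned to the gene. A promoter was a region within 1 kb of the canonical start. The pileup at the summit was solved from fold and p-value, and read totals assume the default genome size of MACS2. A pileup of 10 to 100 reads carries a counting error that 2 libraries do not show. Ranks by fold among the 25627 regions called in every list were turned into normal scores and tested with limma 3.58.1 in R 4.3.3, two-sided, with Benjamini-Hochberg adjustment over all regions. Other values were computed with Python 3.11.15, pandas 2.3.3 and scipy 1.17.1. Copies of start sites (1001 bp) were searched with minimap2, and motifs were matched within 100 bp of a summit. The scripts were tested on simulated data.

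Members, gene lists and tests were chosen with earlier results of these data known. Named by rule were all regions past the rank test, the 5 strongest regions called in 1 condition alone (by the lower of its 2 folds), the promoter of each gene, and the 3 largest rises and falls of the locus score. The CCAAT, CCGGAAGT and NRF1 searches, the comparison of percentiles, and KDM6A, RING1 and PHC2 in the locus scores were chosen after the values were seen. No source used here says that same-numbered libraries were made together, although both replicate 1 lists share a read extension, and the replicate differences of the conditions correlated at r = -0.143 across 25627 regions, which are not independent.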

Additional observations from a re-analysis of the deposited data

How the results depend on the processing

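The 25 promoters called in every list stayed between 20 and 28 under each alternative, and the regions called in 1 condition did not change by over 1.5 times with −log10 p of at least 5 or an overlap of 50%. The 30 regions called only with I-BET151 became 3 with equal numbers of peaks, 17 with no flank, 60 within the replicate 1 pair, 105 within the replicate 2 pair and 34 to 85 when 1 library was left out, the highest without I-BET151 replicate 1. Within the pairs these were 29.6% and 54.1% of the regions of these genes, against 35.5% and 64.6% near protein-coding genes. The 8 called only with DMSO became 2 with −log10 p of at least 10, 60 and 13 within the pairs, and 8 to 45 when 1 library was left out, the highest without DMSO replicate 2. Within the pairs these were 29.6% and 6.70%, against 34.2% and 4.86% near protein-coding genes. The mean locus score difference of 12.3 became 20.6 with −log10 p of at least 10, -0.741 with equal numbers of peaks, 22.8 within the replicate 2 pair (its own lists merged) and 7.98 to 18.4 when 1 library was left out. The 3 rising regions became 2 with ranks within the whole list, 0 with ranks by −log10 p, 0 with centred pileup, 0 with equal numbers of peaks, 65 with uncentred pileup and 0 to 9 when 1 library was left out (0 without either DMSO library, 1 without I-BET151 replicate 1, 9 without I-BET151 replicate 2). The 0 falling regions became 1 with −log10 p of at least 10 and 0 to 2 when 1 library was left out. Over all regions the calls (rising and falling) were 875 and 503, 8 and 27 with ranks by −log10 p, 24614 and 16 with uncentred pileup, 174 and 1188 with centred pileup, and 120 and 47 with equal numbers of peaks. With −log10 p of at least 5, 2 of the 62 regions of these genes tested rose, against 3.56% of all regions tested. The cause of these changes was not tested beyond what the construction of each alternative fixes.

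A replicate block in limma left 3 regions that rose and 0 that fell. Over all regions 985 rose and 652 fell in this fit. The locus score was not fitted. Its mean difference, averaged over the replicate pairs, stays 12.3 by construction. With the crossed pairing, chosen after seeing the data, 5 rose and 1 fell, and over all regions 1985 rose and 1567 fell.

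The SETD1B region turned to -0.0235 with centred pileup. The score difference of RBBP4 turned to 13.5 with −log10 p of at least 10, 1.68 with a flank of 5 kb or none and 0.706 within the replicate 2 pair, and it ranged from -30.2 to 9.79 when 1 library was left out (positive without DMSO replicate 1). That of KMT2E turned to 19.9 with −log10 p of at least 10 and 15.5 within the replicate 2 pair, and it ranged from -13.6 to 11.7 when 1 library was left out (11.7 without DMSO replicate 1 and 2.62 without I-BET151 replicate 1).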
